A study of Homo sapiens with 6 samples.

Results

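A set of 10 transcription factor genes that steer a B cell through, or out of, the germinal centre was followed in a lymphoma line after infection with a hairpin against PRDM11 or a scrambled hairpin. BCL6, BACH2, MEF2B, IRF8, PRDM1, IRF4, XBP1, PAX5, EBF1 and SPIB were taken by gene symbol from a table of 34675 genes, and all 10 symbols had a row. U2932 is an established human lymphoma line, of the activated B cell type of diffuse large B cell lymphoma. RNA sequencing was done on 3 samples infected with ShPRDM11, for which the labels give 1 plasmid, so a single hairpin sequence stands behind that group. A further 3 samples carried ShScramble in a pLKO vector with a puromycin marker, and both groups had 3 days of puromycin selection. PRDM11 is a member of the PR domain family of chromatin and transcription regulators. The table names its conditions only A and B, and no header or label says which of them held the PRDM11 hairpin, so differences run as A over B and are assigned to neither hairpin.

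In the germinal centre, BCL6 represses the genes of activation, of DNA damage checkpoints and of plasma cell formation, and MEF2B activates BCL6. PRDM1 encodes BLIMP-1, a repressor that shuts down BCL6 and PAX5 when a B cell becomes a plasma cell, while IRF4 and XBP1 carry the plasma cell and secretory programmes. BACH2 holds PRDM1 back, and PAX5 and EBF1 maintain B cell identity. Lymphomas of the activated B cell type are known for high IRF4 and for lesions of PRDM1.

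Values are normalised reads, that is, read counts divided by a size factor for each library. Reads of the single libraries were not listed, but the condition means are printed with 15 digits and could be resolved into whole reads of 3 libraries per condition. The size factors of these libraries were 1.21, 1.03 and 0.768 in condition A and 1.09, 1.05 and 0.951 in condition B. Libraries are numbered by falling size factor within a condition, which has no relation to the replicate numbers of the labels. For IRF4, BCL6 and PAX5, 3 sets of whole reads within the limits of the search gave the mean of condition A equally well. Their values in that condition are given for each of these possible sets. The other 7 genes had 1 set, and every one of the 10 had 1 set in condition B. Separate cultures are not stated in the labels, so the spread that the p-values rest on may be technical. PRDM11 itself had 268, 272 and 323 normalised reads in condition A, against 565, 516 and 545 in condition B, without overlap.

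The B cell label of the line was checked against marker genes. The 7 B cell markers had means from 1413 to 84146 in condition A and from 2171 to 71390 in condition B per the authors' deposited table. MS4A1, which encodes CD20, was the highest of them in both conditions. Their median log2 ratio was 0.01, with 4 above 0 and 3 below, and 1 was called higher and 1 lower in condition A. The 5 T and NK cell markers with a row summed to 23.8 normalised reads in condition A, against 14.4 in condition B, and CD7 was listed at 0 in condition B. The 6 myeloid markers with a row summed to 987 in condition A, against 1190 in condition B, of which CD33 made 920.7 and 1135 per the authors' deposited table, with LYZ at 0.93 and 1.31. U2932 has been described as a mixture of subclones that differ in CD20 and CD38. MS4A1 (adjusted p = 0.418 by DESeq) and CD38, with 3940 in condition A, against 3345 in condition B (adjusted p = 0.386 by DESeq), did not pass the adjusted threshold per the authors' deposited table. Of the 4 genes read as subclone markers, MS4A1, CD38 and MYC had an unadjusted p under 0.05, with log2 ratios of 0.24, 0.24 and -0.33, and BCL6, itself a factor gene here, did not. The mixture in each library is not given, and its part in the results was not tested.

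PRDM1, IRF4 and BACH2 were higher in condition A, and no factor gene was called lower by DESeq or by limma with all 6 libraries. PRDM1 showed the largest difference of the 10, 1.75-fold, while IRF4 was 1.33-fold and BACH2 1.34-fold higher. BCL6, MEF2B, IRF8 and SPIB had means above those of condition B without passing the threshold, XBP1 and PAX5 had nearly equal means, and EBF1 had a mean below that of condition B. Calls are genes with a DESeq adjusted p under 0.05 over all rows of the authors' deposited table. At an unadjusted p under 0.05, 4 of the 10 passed and each was higher, beside 19.6% of the genes with a mean of at least 500 in either direction and 9.37% in the upward direction. By the adjusted rule 3 of the 10 genes were called, against 2.54% of all rows and 5.52% of the 8887 genes with a mean of at least 500 normalised reads, a level that each of the 10 exceeded as the mean of both conditions. In the upward direction alone the shares were 0.966% of all rows and 2.25% of those 8887 genes. The median log2 ratio of the 10 genes was 0.30, beside 0.01 for the genes with a mean of at least 500. These genes were picked with earlier results in view, so no test is attached to the count. In bulk RNA, fewer cells of a kind and less RNA per cell cannot be told apart.

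**Figure D1:**
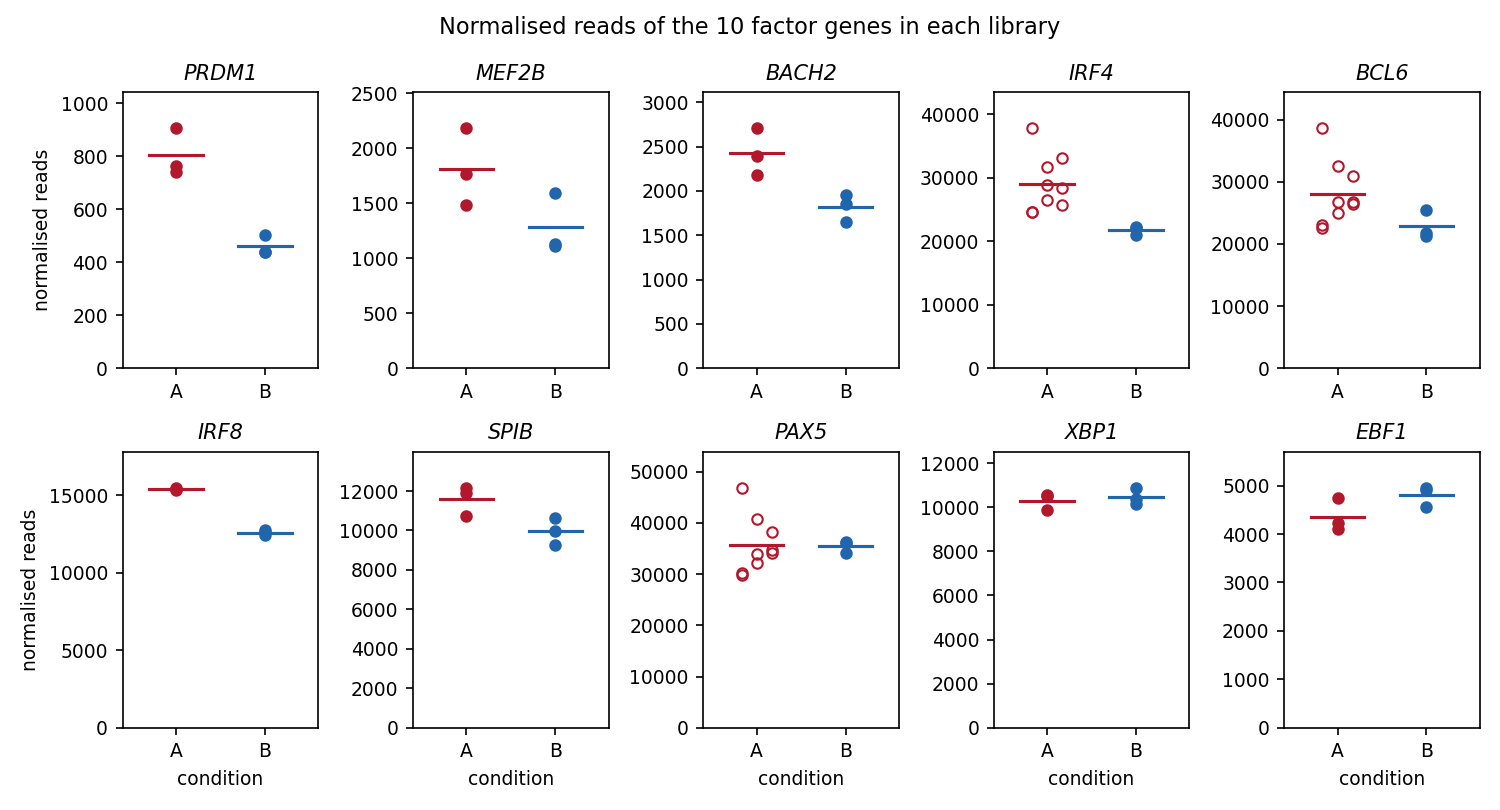
Normalised reads (y axis, from 0) of each factor gene in the libraries of condition A (red) and condition B (blue), with the condition mean as a bar. Filled points are reads with 1 possible set. Open red points for IRF4, BCL6 and PAX5 show the 3 possible sets side by side. For PRDM1 the libraries of condition A lie between 742 and 907 and those of condition B between 439 and 502.

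Among the factors of plasma cell fate, PRDM1 (ENSG00000057657) had the largest log2 ratio. In build hg19 its 9 coding blocks span 106534429 to 106555358 of chromosome 6. PRDM1 had 742, 766 and 907 normalised reads in the 3 libraries of condition A, against 502, 440 and 439 in condition B. Every library of condition A was above every library of condition B. The recovered libraries averaged 805 ± 89.3 in condition A and 460.2 ± 36.4 in condition B (SD, n = 3 each). By the authors' deposited table, the log2 ratio was 0.81 with a standard error of 0.14 derived from its p (adjusted p = 1.12e-06 by DESeq), the 85th smallest p of all rows. Leaving out any 1 library gave PRDM1 a log2 ratio between 0.71 and 0.87. A limma fit to the recovered reads gave an adjusted p of 0.0027 for PRDM1, and 0.0012 to 0.0236 with 1 library left out.

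The promoters of PRDM1 and BCL6 are shown because these factors repress each other's programme and because matches to binding motifs lie close to their starts. The sequences are the 250 bases before an annotated start, from RefSeq on GRCh38.p14, written in the direction of transcription with motif matches in capitals. They are chr6:106098691-106098940 on the plus strand, before the internal PRDM1 start, and chr3:187745469-187745718 and chr3:187736502-187736751 on the minus strand, before the upstream and the downstream BCL6 start. Which start the cells used was not measured.
PRDM1 internal start: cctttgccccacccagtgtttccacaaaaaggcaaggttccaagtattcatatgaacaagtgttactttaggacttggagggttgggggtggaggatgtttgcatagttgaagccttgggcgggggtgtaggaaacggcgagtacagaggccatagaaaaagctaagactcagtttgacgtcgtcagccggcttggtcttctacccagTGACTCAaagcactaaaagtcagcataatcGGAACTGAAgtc
BCL6 upstream start: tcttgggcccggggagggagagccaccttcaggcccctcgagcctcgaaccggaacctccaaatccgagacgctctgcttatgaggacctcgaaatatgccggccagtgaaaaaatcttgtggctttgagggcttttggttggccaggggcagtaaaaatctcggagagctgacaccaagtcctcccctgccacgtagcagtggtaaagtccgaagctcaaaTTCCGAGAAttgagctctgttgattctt
BCL6 downstream start: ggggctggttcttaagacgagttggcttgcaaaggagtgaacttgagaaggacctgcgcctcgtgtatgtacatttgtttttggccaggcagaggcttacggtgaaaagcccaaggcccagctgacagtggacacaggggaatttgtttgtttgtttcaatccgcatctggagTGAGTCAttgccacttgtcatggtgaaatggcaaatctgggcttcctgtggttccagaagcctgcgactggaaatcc

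Before the internal PRDM1 start, TGACTCA begins at base -42, where -1 is the last base before the start, and matches the AP-1 motif TGANTCA, which BACH2 with a MAF partner can also bind in a longer form. GGAACTGAA begins at base -12 and matches GGAANNGAA, the composite motif of an ETS factor such as SPIB with IRF4 or IRF8. Of 35116 RefSeq promoters of this length, 6.57% held the AP-1 motif on either strand and 6.58% the ETS-IRF motif. The BCL6 upstream start is preceded at base -28 by TTCCGAGAA, a match to TTCNNNGAA, used here for BCL6 itself and held by 6.57% of the promoters. Before the BCL6 downstream start, the AP-1 motif was matched by TGAGTCA at base -77. These matches describe the letters and were not measured as bound sites.

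Across the 14 promoters listed for the 10 genes, 9 motifs were searched on both strands. SPIB matched TANNNNTAG, the pattern used here for MEF2, at base -29 with TATAAATAG, and 14.6% of all promoters held that pattern. The matched letters contain TATAAA, as in a TATA box, so they cannot be read as a MEF2 site from the sequence alone. EBF1 carried the overlapping matches GGAAGTGAA at base -33 for the ETS-IRF motif and AGTGAAAG at base -30 for the BLIMP-1 motif AGNGAAAG (6.57% of all promoters). MEF2B matched the EBF1 motif CCCNNGGGA (7.84%) on the other strand. No match was found in these windows for IRF4, BACH2, PAX5, IRF8, XBP1 or the upstream start of PRDM1, and none of the 14 held the IRF motif GAAANNGAA (6.88%), the BACH2 with MAF motif TGANTCAGC (1.11%) or the XBP1 motif TGACGTGG (0.612%). The TGANTCA and TGANTCAGC motifs overlap by construction. The promoters of IRF4 and BACH2 were 76% and 73.6% G and C, against a mean of 57.2% over all promoters and 53.6% and 48.8% for those of PRDM1.

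IRF4 (ENSG00000137265, chromosome 6, coding intervals 393153 to 407595 in hg19), which encodes a factor needed in activated B cells and plasma cells, had means of 29044 normalised reads in condition A, against 21794 in condition B per the authors' deposited table. The libraries of condition A held 24643, 24641 and 37848 in the first possible set, 26525, 28845 and 31762 in the second and 28408, 33049 and 25675 in the third. Condition B held 22132, 22281 and 20970 normalised reads of IRF4. The libraries of condition A were above those of condition B in each of the 3 sets. The log2 ratio of IRF4 per the authors' deposited table was 0.41, with a derived standard error of 0.12 (adjusted p = 0.0276 by DESeq). In limma the adjusted p of IRF4 ranged from 0.0146 to 0.121 over the sets, and missed 0.05 in the first. In no set was the limma call kept without library 2 of condition A or library 2 or 3 of condition B, with adjusted p of at least 0.0749, 0.069 and 0.0808. Without library 3 of condition A, the log2 ratio of IRF4 in the first set was 0.18.

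XBP1 (ENSG00000100219, chromosome 22, 29191166 to 29196512 in hg19), the activator of the secretory and unfolded protein programme, had nearly equal levels. Its means were 10301 normalised reads in condition A, against 10471 in condition B per the authors' deposited table (log2 ratio -0.02, adjusted p = 1 by DESeq). Its libraries lay between 9852 and 10563 in condition A and between 10163 and 10887 in condition B, and the ranges overlapped. The limma 95% interval of the XBP1 log2 ratio ran from -0.18 to 0.13. The read count does not tell the spliced, active form of XBP1 mRNA from the unspliced one.

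The germinal centre repressor BCL6 (ENSG00000113916, chromosome 3, 187440249 to 187451481 in hg19) averaged 28073 normalised reads in condition A, against 22813 in condition B per the authors' deposited table (log2 ratio 0.30, adjusted p = 0.652 by DESeq), and did not pass the threshold. Possible libraries of condition A were 23010, 22570 and 38638, or 24893, 26775 and 32552, or 26775, 30979 and 26465. Condition B held 25440, 21259 and 21740 normalised reads of BCL6. The conditions overlapped in the first and second sets and did not in the third. With library 3 of condition A left out, the log2 ratio of BCL6 in the first set was -0.00. The limma interval, taken over the 3 sets, ran from -0.14 to 0.65, with an adjusted p between 0.0712 and 0.378.

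BACH2 (ENSG00000112182, chromosome 6, 90642130 to 90718563 in hg19), a repressor that pairs with small MAF proteins, was higher in condition A. BACH2 had 2177, 2394 and 2709 normalised reads in condition A, against 1652, 1954 and 1847 in condition B. The lowest library of condition A was above the highest of condition B. By the authors' deposited table, the log2 ratio of BACH2 was 0.42 with a derived standard error of 0.13, close to the threshold (adjusted p = 0.0486 by DESeq). Limma on the recovered reads gave an adjusted p of 0.0329 for BACH2. The limma call was lost without library 2 of condition A (adjusted p = 0.118) and without library 1, 2 or 3 of condition B (adjusted p = 0.0807, 0.0797 and 0.112), while its log2 ratio lay between 0.33 and 0.49 whichever library was left out.

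MEF2B (ENSG00000213999, chromosome 19, 19256506 to 19261544 in hg19), a MADS box activator often mutated in germinal centre lymphomas, had the widest spread of the 7 genes with 1 set of reads. Its libraries held 1485, 1764 and 2184 normalised reads in condition A and 1596, 1114 and 1130 in condition B. Library 1 of condition B was above library 1 of condition A, so the conditions overlapped. The log2 ratio of MEF2B was 0.50 per the authors' deposited table, larger than those of IRF4 and BACH2, with a derived standard error of 0.27 (adjusted p = 0.585 by DESeq). In limma its adjusted p was 0.0806 and its interval ran from 0.14 to 0.87. Its coefficient of variation over libraries was 19.4% in condition A, against 21.4% in condition B, while IRF8 had 0.549% and 1.27%.

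IRF8 (ENSG00000140968, chromosome 16, 85936622 to 85954885 in hg19) encodes a factor that works with PU.1 or SPIB and supports BCL6 expression in germinal centre B cells. IRF8 had 15323, 15492 and 15415 normalised reads in condition A, against 12413, 12613 and 12729 in condition B. Every library of condition A was above every library of condition B, with coefficients of variation of 0.549% and 1.27%. A spread taken from 3 libraries is itself uncertain, so these small values do not make the difference firmer. The log2 ratio of IRF8 was 0.29 per the authors' deposited table, where it did not pass (p = 0.0102, adjusted p = 0.206 by DESeq). Limma on the recovered reads gave an adjusted p of 0.0242 for IRF8, a call that was lost without library 2 of condition A or library 2 or 3 of condition B (adjusted p = 0.123, 0.115 and 0.113). By the limma rule 9.32% of 17237 genes were called in either direction.

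**Figure D2:**
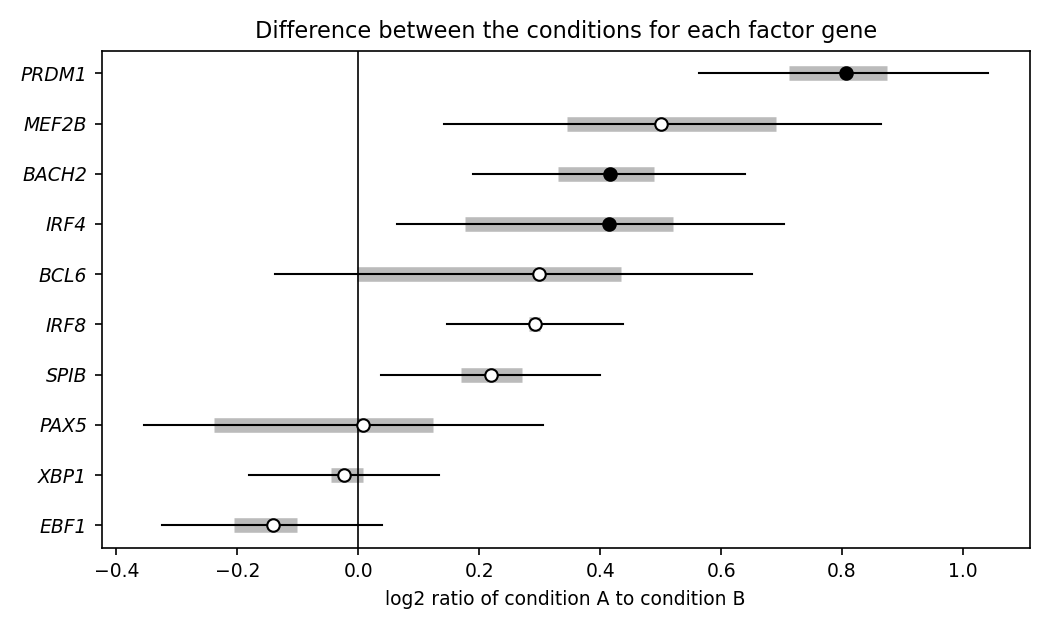
Log2 ratio of condition A to condition B (x axis) for each factor gene, filled where the deposited adjusted p is under 0.05. Grey bars span the ratios with 1 library left out, and thin lines the limma 95% interval, both over the possible sets of reads. PRDM1 lies at 0.81 with grey bars from 0.71 to 0.87, and the lines of BCL6, PAX5, XBP1 and EBF1 cross 0.

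PAX5, EBF1 and SPIB, factors of B cell identity, did not pass the threshold. PAX5 (ENSG00000196092, chromosome 9, 36840529 to 37034028 in hg19), the paired box factor that holds B cells to their lineage, had means of 35652 normalised reads in condition A, against 35450 in condition B per the authors' deposited table (log2 ratio 0.01, adjusted p = 1 by DESeq). Its libraries lay between 29754 and 46887 over the 3 possible sets of condition A and between 34063 and 36198 in condition B, and overlapped in each set. The limma interval of PAX5 ran from -0.35 to 0.31 over the sets. Without library 3 of condition A, limma called PAX5 lower in the first set (log2 ratio -0.24, adjusted p = 0.0415), and the adjusted p reached 0.868 in another set. EBF1 (ENSG00000164330, chromosome 5, 158126122 to 158526486 in hg19), an early B lineage factor, had libraries between 4113 and 4741 in condition A and between 4553 and 4958 in condition B, which overlapped. By the authors' deposited table, EBF1 had a log2 ratio of -0.14 (adjusted p = 0.926 by DESeq), and the limma interval ran from -0.32 to 0.04. SPIB (ENSG00000269404, chromosome 19, 50922220 to 50931590 in hg19), an ETS factor expressed in mature B cells, held 10759, 11902 and 12172 normalised reads in condition A and 10645, 9994 and 9289 in condition B. The SPIB libraries of condition A were just above those of condition B, with 10759 as the lowest against 10645 as the highest. Its log2 ratio was 0.22 per the authors' deposited table (adjusted p = 0.636 by DESeq), with an adjusted p of 0.118 in limma.

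In 5 genes, PRDM1, IRF4, BACH2, IRF8 and SPIB, every library of condition A was above every library of condition B in each possible set, and in none was every library below. The same held for 17.7% of the 8508 genes that averaged at least 500 and had recovered reads. Library 3 of condition A, with the smallest size factor of the 6, had the highest value of its condition for 5 of the 7 genes with 1 set, among them PRDM1, BACH2 and MEF2B. The part of that library in the results was not tested beyond leaving it out. Without it, the log2 ratio of PRDM1 was 0.71 and that of BACH2 0.33.

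Ratios between the reads of 2 genes in the same library do not use the size factors. For every 100 reads of EBF1 there were 18.4 ± 0.61 reads of PRDM1 in condition A and 9.61 ± 1.23 in condition B (SD, n = 3 each). BACH2 had 55.6 ± 2.31 reads for every 100 of EBF1 in condition A and 37.8 ± 1.81 in condition B. Both ratios were higher in every library of condition A. EBF1 and XBP1, which is used below, had log2 ratios of -0.14 and -0.02 themselves, which widens ratios to them. The antagonists PRDM1 and BCL6 stood at 28.8 to 29.9 reads of PRDM1 for every 1000 of BCL6 in condition A, as means over the possible sets, and at 20.2 in condition B, without overlap in any set. Against XBP1, PRDM1 had 7.84 ± 1.19 reads for every 100 in condition A and 4.40 ± 0.48 in condition B. PRDM1 also stood higher against its repressor BACH2, with 34.1, 32.0 and 33.5 reads for every 100 in condition A and 30.4, 22.5 and 23.7 in condition B. IRF4 against PAX5 was above the 61.1 to 61.7 reads for every 100 in condition B in all but 1 of the 9 combinations of possible sets. IRF4 against IRF8 overlapped between the conditions in each set. These ratios rest on the same reads as the log2 ratios and are no separate evidence.

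The levels of the 10 genes spanned a 43.6-fold range when set per kilobase (kb) of exon, using exon lengths from GENCODE 29. IRF4 was highest, with 4924 normalised reads per kb of exon in condition A, against 3695 in condition B, followed by BCL6 with 4728 and 3842 and PAX5 with 3820 and 3798. XBP1, IRF8 and SPIB came next, with 3402, 2985 and 2712 in condition A and 3458, 2438 and 2330 in condition B. MEF2B had 980.0 per kb in condition A, against 692.5 in condition B, and EBF1 705.7 and 778.2. The lowest were BACH2, with 248.0 in condition A, against 185.7 in condition B, and PRDM1, with 125.9 and 72.0. The ranges over libraries and sets of neighbours in this order overlapped for IRF4 and BCL6 and for BCL6 and PAX5 in both conditions, for PAX5 and XBP1 in condition A, and for IRF8 and SPIB and for MEF2B and EBF1 in condition B. Per kb of coding sequence the first places were PAX5, IRF4 and SPIB, so the order among the 6 highest depends on the length used, while MEF2B, EBF1, BACH2 and PRDM1 were the 4 lowest on both scales.

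**Figure D3:**
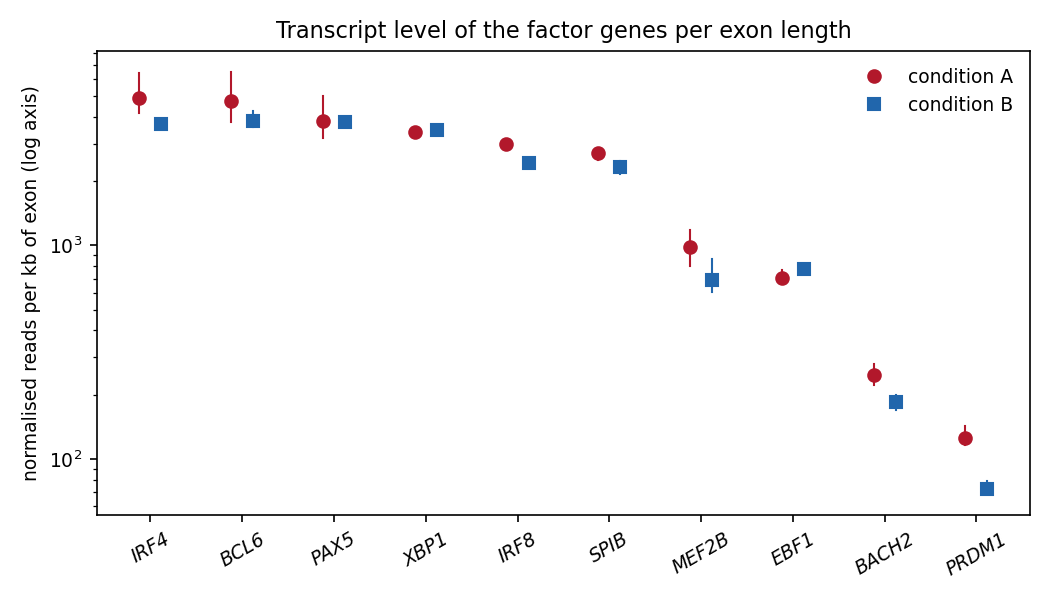
Normalised reads per kb of exon (log axis) in condition A (circles) and condition B (squares), with lines over the range of the libraries and possible sets, genes ordered by their mean level. IRF4 has 4924 in condition A, against 3695 in condition B, and PRDM1 125.9 and 72.0.

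Some of these genes share their position with others, and the strand setting of the counting is not given in the sources used here, so reads of overlapping genes cannot be told apart with certainty. ATG5, an autophagy gene on the opposite strand whose span overlaps that of PRDM1 without shared exons, had means of 1078 in condition A, against 1366 in condition B per the authors' deposited table (adjusted p = 0.191 by DESeq), opposite in sign to PRDM1. An antisense gene that overlaps BCL6 exons, AC072022.1, had 119.1 normalised reads in condition A, against 96.8 in condition B, per the authors' deposited table. A readthrough transcript gene that ends in MEF2B had 74.5 and 60.2 normalised reads in conditions A and B per the authors' deposited table. How reads common to that gene and MEF2B were counted is not given in the sources used here, so the level of MEF2B is uncertain.

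The genes around these factors were read from 8 lists of cofactors, reported targets, plasma cell genes and related factors, together 144 genes with a row. Of them 19 were called per the authors' deposited table, 13 higher and 6 lower in condition A, which is 13.2%, beside 2.54% of all rows. Among the 123 with a mean of at least 500 there were 17 calls, beside 5.52% of genes at that level. The lean to higher calls depended on the rule, with 14 higher and 13 lower among 27 when p was adjusted over genes averaging at least 50. Limma called 14 higher and 14 lower, but could test only 117 of the 144. HERPUD1, CD79B and FCRLA, called higher by DESeq, were not among the 117, so the limma balance also reflects which genes were recovered. With 1 library left out, limma called between 9 and 37 of the 117. The fewest were called when library 2 of either condition was dropped and the most when library 1 of condition A was. Lists with 1 call among 16 or 17 genes, or 2 among 24, lie near the background share, and their called genes are described singly. The median log2 ratio of the 136 genes with a mean of at least 50 was 0.11, against -0.00 for all genes at that level. Of the 19, 16 had reads resolved in each of the 6 libraries, and 10 of these were higher and 6 lower in every library of condition A than in every library of condition B. In the higher direction this held for 17.7% of the 8508 recovered genes averaging at least 500. The 16 were called from the same reads, so their separation is no separate evidence. The lists were chosen with earlier results of these data known.

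Genes reported as repressed by BLIMP-1, the product of PRDM1, held 2 calls among 12, both lower in condition A, of which MYBL1 is described here. The share called in either direction was 5.52% of genes averaging at least 500. MYBL1, a MYB family factor of germinal centre B cells, had 4542, 4333 and 3538 normalised reads in condition A and 5218, 6622 and 6642 in condition B (log2 ratio -0.57, adjusted p = 0.0327 by DESeq per the authors' deposited table). The other 10 genes were not called. MYC, the growth regulator, had 4444 in condition A, against 5604 in condition B per the authors' deposited table (adjusted p = 0.398 by DESeq). The median log2 ratio of the list was -0.06, with 5 genes above 0 and 7 below. Of the 5 plasma cell markers PRDM1 alone was called, itself a factor gene here. Among 5 germinal centre markers, 2 were called lower in condition A, the same 2 genes as in the BLIMP-1 list. The median log2 ratio of those markers was -0.37, with 4 below 0 and BCL6 above.

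Of 18 genes reported as repressed by BCL6, CCL3 and ID2 were called, both higher in condition A. The shares called in either direction were 2.54% of all rows and 5.52% of genes averaging at least 500. CCL3, a chemokine gene, had 245, 302 and 299 normalised reads in condition A and 177, 148 and 178 in condition B (log2 ratio 0.75, adjusted p = 0.000493 by DESeq per the authors' deposited table). ID2, an inhibitor of E proteins, had 5758, 5648 and 5194 in condition A and 3648, 3508 and 3672 in condition B (log2 ratio 0.62, adjusted p = 1.52e-05 by DESeq per the authors' deposited table). For both, every library of condition A was above every library of condition B. CD69, an early activation marker named after its value was seen, had the larger log2 ratio of 1.42 but missed the threshold per the authors' deposited table (adjusted p = 0.0898 by DESeq). For the 17 of these genes that averaged at least 50, the median log2 ratio was 0.13. Among 24 cofactors of BCL6 and MEF2B with a row, HDAC5 and HDAC9 were called higher, with log2 ratios of 0.48 and 0.39 per the authors' deposited table. Both are class IIa deacetylase genes, whose products bind MEF2 factors. The other class IIa genes of the list, HDAC4 and HDAC7, were not called and had log2 ratios of -0.31 and 0.09 there. The median of that list was 0.19.

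Genes reported as activated by PAX5 or EBF1 moved in both directions, 3 higher and 3 lower of 15, beside 5.52% of genes averaging at least 500 in either direction. The complement receptor gene CR2 and the inhibitory receptor gene CD72 were lower, with log2 ratios of -0.45 and -0.55 per the authors' deposited table. The HMG box factor gene LEF1 was higher, with 4690, 5176 and 5901 in condition A and 3435, 3003 and 2980 in condition B (log2 ratio 0.74, adjusted p = 1.88e-05 by DESeq per the authors' deposited table). CD79B, a signalling chain of the B cell receptor, and FCRLA, an Fc receptor-like gene, were higher too, with log2 ratios of 0.42 and 0.40 per the authors' deposited table. The median of the list was 0.14.

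Downstream of XBP1, 1 of 16 genes was called, a share near the background of 5.52%. HERPUD1, a gene of endoplasmic reticulum associated degradation, had means of 28908 normalised reads in condition A, against 16179 in condition B, a log2 ratio of 0.84 per the authors' deposited table (adjusted p = 7.79e-10 by DESeq). The median of the list was -0.01, and the chaperone gene HSPA5 had a log2 ratio of -0.02 per the authors' deposited table. None of 16 plasma cell genes was called by the authors' DESeq test, though 8 had an unadjusted p under 0.05, 5 of them higher and 3 lower, and limma called 3 of the 15 it tested. The shares over all genes were 19.6% for the unadjusted p at a mean of at least 500 and 9.32% for limma. The plasma cell markers IGJ, the joining chain of secreted antibodies, and SDC1, which encodes CD138, had log2 ratios of 0.25 and -0.51 per the authors' deposited table, neither past the threshold (adjusted p = 0.348 and 0.123 by DESeq). MZB1, a chaperone of antibody secretion, had a log2 ratio of -0.34 there (adjusted p = 0.0595 by DESeq).

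Among 26 other B cell transcription factor genes, 4 were higher and 1 was lower in condition A, beside 5.52% of genes averaging at least 500 in either direction. RUNX1, a runt domain factor, had 7569, 8164 and 9521 normalised reads in condition A and 5478, 5153 and 5306 in condition B (log2 ratio 0.66 per the authors' deposited table, adjusted p = 6.16e-05 by DESeq). MYB, the proto-oncogene of blood progenitors, had 2500, 2792 and 2958 in condition A and 1707, 1834 and 1793 in condition B (log2 ratio 0.63 per the authors' deposited table). The ETS family repressor gene ETV6 and FOXP1, a forkhead factor gene of activated B cell lymphomas, were higher by log2 ratios of 0.52 and 0.43 per the authors' deposited table. STAT5A, a cytokine signal transducer, was lower, with a log2 ratio of -0.52 there. Of 17 family relatives with a row, MEF2C alone was called, with 12638, 13000 and 14073 in condition A and 9505, 9410 and 9310 in condition B (log2 ratio 0.49 per the authors' deposited table, adjusted p = 0.0026 by DESeq). The libraries of MEF2C did not overlap; those of MEF2B did. The medians of these lists were 0.19 and 0.16.

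**Figure D4:**
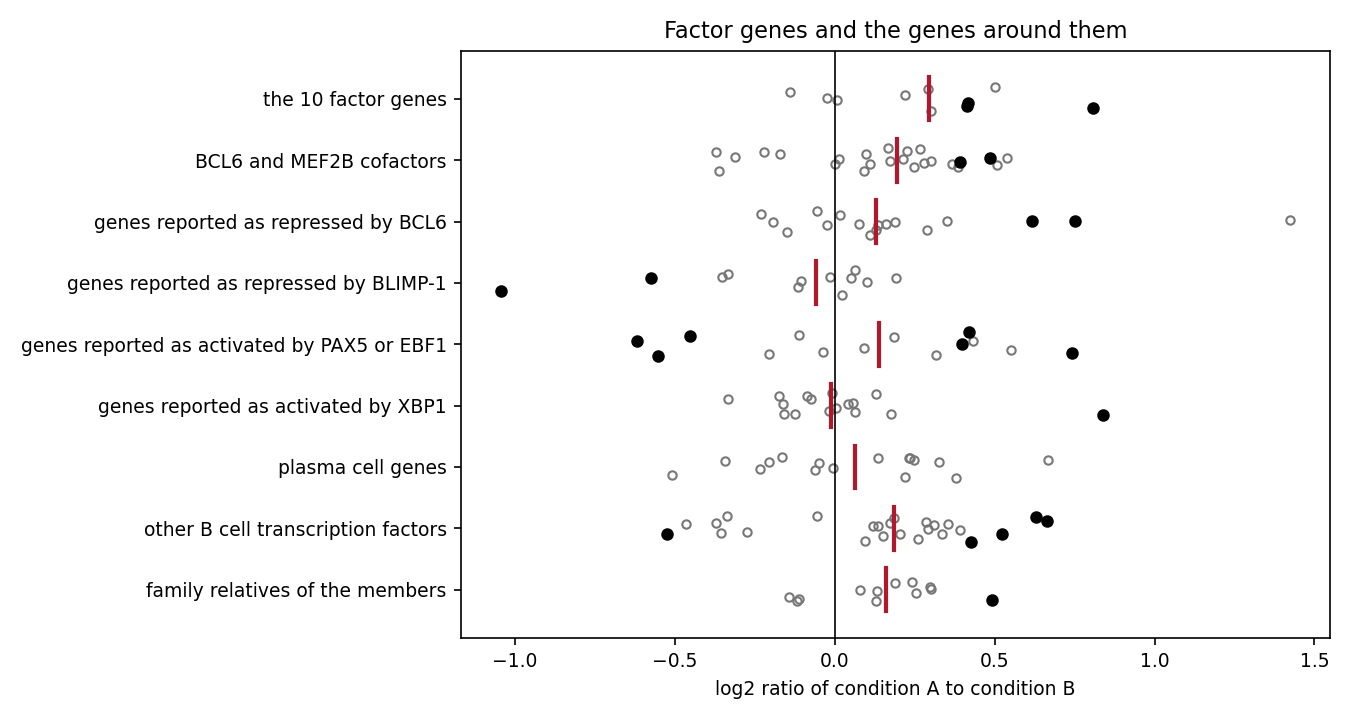
Log2 ratios of condition A to condition B (x axis) for the 10 factor genes and the genes of 8 lists with a mean of at least 50, filled black where the deposited adjusted p is under 0.05, with the list's median as a red bar. The median is 0.30 for the factor genes and -0.06 for genes reported as repressed by BLIMP-1.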

How the data were processed

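RNA sequencing of U2932 cells covers 3 PRDM11 hairpin and 3 scrambled hairpin samples. The submitters' processing notes name STAR, HTSeq 0.5.4p5, DESeq 1.14.0 and build hg19 without their roles. Means of conditions A and B were deposited as a signal in normalised reads, per the file headers. The deposited table also holds their ratio, its log2, and the p-value of the authors' comparison before and after adjustment. The deposited ratio is condition B over condition A, and the log2 values are printed with the sign turned. A deposited hg19 track holds coding intervals with a score that was not used. Its ends were read as inclusive, because coding lengths of 6760 genes were then whole codons in 81.3%, and in 27.0% otherwise. The tables hold 0 other columns of values per sample.

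Each mean is a sum of 3 whole read counts with fixed weights, so reads per library were sought by an integer search. Means up to 40000 were searched, freely to 1500 and above that with each library at 0.7 to 1.4 times its condition's mean. In condition A 568 of 844 genes with means above 10000 had 1 solution and in condition B 771 of 771. In all, 34295 genes were recovered in all 6 libraries, and the search was tested on simulated data. The main calls are the adjusted p of the authors' DESeq comparison under 0.05, Benjamini-Hochberg over all rows. The derived standard error is the log2 ratio divided by the normal quantile of the p, an approximation given for called genes and a few others. Limma 3.58.1 (R 4.3.3) was fitted to log2(normalised reads + 1) of 17237 recovered genes averaging at least 10, and tested on simulated data, and its 95% intervals are given. Promoters are from RefSeq, GRCh38.p14, and exon lengths from GENCODE 29, matched for all 10 factor genes by identifier.

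The factor genes and lists were chosen with earlier results of these data known. The text names PRDM11, the 10 factor genes, the called members of each list (at most the 4 with the smallest p, more where a count of 5 or fewer would stay unnamed) and markers. Some genes that this rule names are included in counts and are not otherwise reported here. CD69, MYC, HSPA5, HDAC4 and HDAC7 were named after their values were seen. Alternatives were the test, the filter on low values, the threshold, a pseudocount, the centring and leaving out each library.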

Additional observations from a re-analysis of the deposited data

How the results depend on the processing

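At an adjusted p of 0.01, 505 genes were called in all, 1 factor gene (PRDM1) and 12 list genes, against 881, 3 and 19 at 0.05. Limma on the recovered reads called 1607 genes, 684 higher and 923 lower in condition A, and the 3 factor genes PRDM1, BACH2 and IRF8 with the first possible set of reads. IRF4 was not called in that set (log2 ratio 0.38, adjusted p = 0.121) and was in the others. With 1 library left out, limma called between 378 and 2319 genes, between 1 and 4 factor genes and between 9 and 37 of the 117 list genes it tested. All-gene counts were 2319, 396 and 1692 without library 1, 2 and 3 of condition A, and 1076, 378 and 396 without library 1, 2 and 3 of condition B. List gene counts in the same order were 37, 9, 31, 22, 9 and 11, and factor gene counts 4, 1, 4, 3, 1 and 1, in the first possible set. Without library 3 of condition A, 3 of the 4 were higher and PAX5 was called lower (log2 ratio -0.24, adjusted p = 0.0415), where its deposited log2 ratio was 0.01. PRDM1 was called with any 1 library left out. Adjusting over genes with a mean of at least 10 or at least 50 left 3 factor genes called, and 27 list genes with 14 higher and 13 lower. Among recomputed log2 ratios of single factor genes, 126 moved by less than the derived standard error. Another 14 moved by more or changed sign near 0. A further 1, IRF8 in limma, newly passed the threshold, and 1, IRF4 in limma with the first set, no longer did. Ratios recomputed with 1 library left out, a pseudocount or centring were not compared with the threshold in this count. The 126 include pseudocount and centring values, which hardly change genes at these read levels, so the count does not measure stability. Ratios of IRF4, BCL6 and PAX5 without a library of condition B enter once for each possible set with the same value. Most of the 14 were of PAX5, whose derived standard error of 0.05 rests on a log2 ratio near 0. The limma interval of PAX5 ran from -0.35 to 0.31. None of the ratios of PRDM1, IRF4 and BACH2 changed sign. The cause of these shifts was not tested. No paired analysis was possible because the recovered libraries carry no replicate number of the labels. With 3 libraries a condition and 3 possible sets for IRF4, BCL6 and PAX5, the spread of these genes in condition A is known only as a range within the search limits.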
